A study of Lactuca sativa with 24 samples.

Results

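In RNA sequencing of lettuce (Lactuca sativa) baby leaves, 3 deep libraries shared a set of transcript levels that set them apart from the 15 other deep libraries. They are Luna bionda UVB 2.5 h replicate 2, Luna bionda UVB 2.5 h replicate 3 and Falstaff visible light day 6 replicate 1, and so they span both varieties and both UV-exposed and unexposed leaves. The set consists of the 100 genes with the highest and the 100 genes with the lowest difference between the mean log2(CPM + 1) of these 3 libraries and that of the 15 others. CPM is a gene's reads divided by all reads in genes of the library, times 1e6. The difference was ranked over 14862 genes, out of 31499 in all, that had a mean of at least 5 CPM over the 18 deep libraries. The 100 higher and the 100 lower members are described apart. Since the members were chosen by their measured levels in these 18 libraries, the levels of these 3 libraries against the 15 others are a description and carry no test.

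The leaves of both wild-type varieties were grown under LED lamps, and every group held 3 libraries. Luna bionda was given UVB at 0.4 W per square metre for 6 days, for 2.5 h per day in one group and for 7.5 h per day in another, beside groups of visible light alone at day 6 and of day 0. Falstaff was given UVB for 2.5 h per day or UVA for 7.5 h per day at the same irradiance, beside visible light alone at day 6 and day 0. The labels do not name separate plants behind the libraries of a group, so that a p-value rests on the spread among libraries and part of it may be technical. The groups follow the labels, but the names of the deposited tables disagree with them. The labels and the table names both place Luna bionda UVB 2.5 h replicates 2 and 3 in a set with replicate 1. Falstaff visible light day 6 replicate 1 lies in a set that the table names call day 0. The libraries labelled day 0 lie in sets that the table names call visible light in Luna bionda and UVB in Falstaff. Those labelled Falstaff UVA lie in a set called visible light. The groups labelled Luna bionda visible light and Luna bionda UVB 7.5 h are each divided between sets called UVB and day 0.

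In leaves, UVB is perceived by the photoreceptor UVR8, which in Arabidopsis acts through the transcription factor HY5 on genes of flavonoid synthesis and photoprotection. The level of a transcript in a leaf reflects its synthesis and decay, summed over epidermal, mesophyll and vascular cells. Genes whose levels move together across samples are often called an expression module. In such bulk samples, fewer cells of a type and less RNA per cell cannot be told apart. The genes carry locus identifiers without product names in the sources used here, so that no role is given to a member and leaf markers were not checked.

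The 3 libraries held 16483560, 29545956 and 31581946 reads in genes, in the order Luna bionda UVB 2.5 h replicate 2, Luna bionda UVB 2.5 h replicate 3 and Falstaff visible light day 6 replicate 1. All values of the 3 libraries below keep this order. The 15 other deep libraries held between 12072410 and 43276819 reads. The remaining 6 libraries were shallow, with 464282 to 1036697 reads, and were not used to choose the members. These are replicate 1 of Luna bionda UVB 7.5 h, of Falstaff UVB 2.5 h and of Falstaff day 0, replicates 1 and 3 of Falstaff UVA, and replicate 2 of Falstaff visible light day 6. The plastid share of reads was 4.47% to 11.6% in shallow libraries and 0.000758% to 0.0078% in deep ones. Among the 3 libraries the plastid shares were 0.0078%, 0.00509% and 0.00154%, and the first of them was the highest of the deep libraries. The shares of mitochondrial and ribosomal RNA genes in the 3 libraries lay within the ranges of the 15 others. Genes with at least 1 CPM numbered 17704, 18458 and 19726 in the 3 libraries, against 19046 to 20396 in the 15 others, so that both Luna bionda libraries were below all 15. The 10 genes with the most reads took 10.3%, 8.56% and 6.97% of reads in the 3 libraries, against 5.65% to 8.94% in the others. The batch tags in the labels fall into a lower and an upper number series. Both Luna bionda libraries of the 3 and all shallow libraries have tags of the lower series, and the Falstaff library of the 3 has a tag of the upper one. The part of these features in the shared levels was not tested.

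The higher members together took 5.14%, 2.96% and 2.71% of all reads in the 3 libraries. In the 15 other deep libraries their share was between 0.208%, in Luna bionda UVB 2.5 h replicate 1, and 0.62%, in Falstaff UVA replicate 2, with a median of 0.37%. The library with the lowest share was therefore the third library of the UVB group that holds both Luna bionda libraries of the set. The lower members took 0.056%, 0.321% and 0.307% of reads in the 3 libraries. In the 15 others they took 1.01%, in Falstaff UVA replicate 2, to 3.39%, in Luna bionda UVB 2.5 h replicate 1. The groups do not overlap in either share, and the same 2 libraries mark opposite ends of the 15 for both lists. Reads on the higher members were 91.9, 9.22 and 8.82 times those on the lower members in the 3 libraries, against 0.0614 to 0.612 times in the 15 others.

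**Figure D1:**
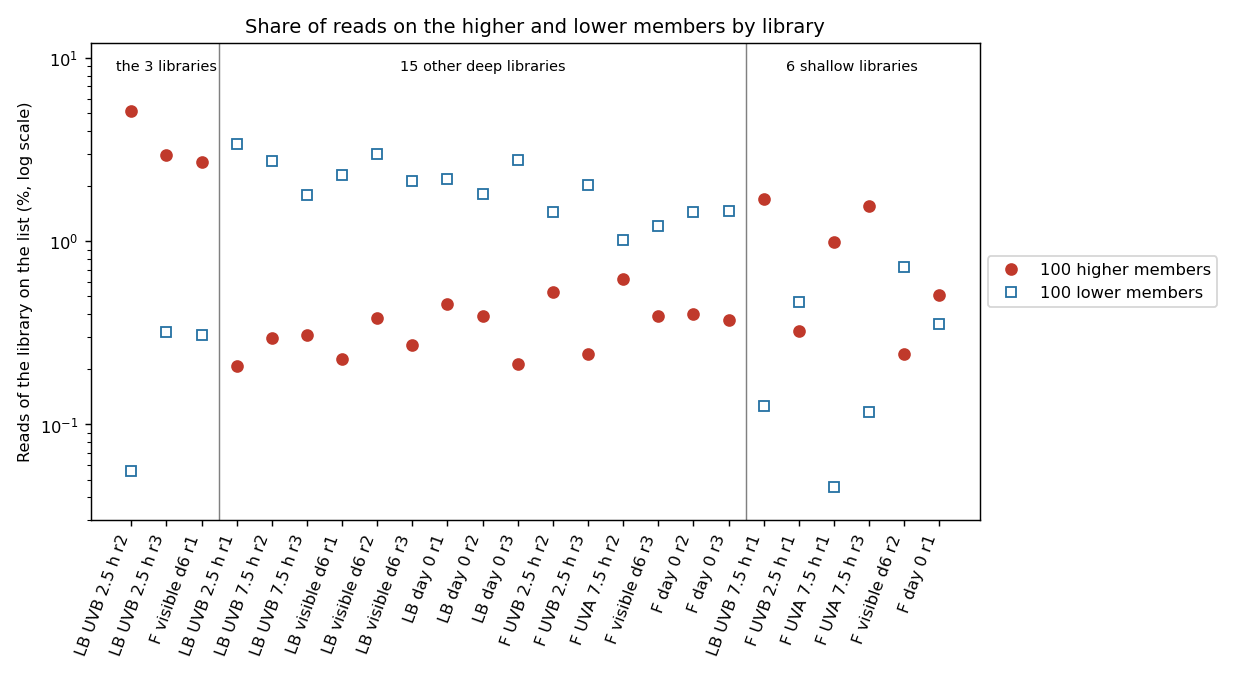
Share of each library's reads that fell on the 100 higher members (filled circles) and on the 100 lower members (open squares), in percent on a log axis, for the 3 libraries, the 15 other deep libraries and the 6 shallow libraries; LB is Luna bionda, F is Falstaff, d6 is day 6 and r is the replicate. The circles lie at 2.71% to 5.14% in the 3 libraries and at 0.208% to 0.62% in the 15 others, and 3 of the shallow libraries lie between 0.994% and 1.7%.

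The differences of the higher members ran from 3.02 to 7.14 on the log2 scale with a median of 3.62. Those of the lower members ran from -5.87 to -2.94 with a median of -3.47. The median over all 14862 genes was -0.31. Of all these genes, 911 were at least 1 log2 unit higher and 2174 at least 1 log2 unit lower, and 305 were at least 2 log2 units higher and 402 lower. A median higher member had 147, 117 and 69.7 CPM in the 3 libraries, against 3.04 to 8.51 CPM in the 15 others. A median lower member had 1.7, 4.18 and 4.75 CPM, against 28.0 to 87.9 CPM. In 84 of the 100 higher members each of the 3 libraries was above all 15 others, as was so for 3.4% of all 14862 genes. In 71 of the 100 lower members each of the 3 was below all 15, against 5.92% of all genes. The rule fixed these counts through the same levels.

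At the edge of the higher list, LOC111881233 was the last member, with 153, 133 and 167 CPM in the 3 libraries and a median of 17.7 CPM in the 15 others, a difference of 3.020. LOC111898568 stood just inside it at 3.033. The first genes outside, LOC111883576 and LOC111877948, had differences of 3.016 and 3.003. At the edge of the lower list, LOC111905360 and LOC111910999 were inside, both at -2.94, and LOC111889449 and LOC111878808 were outside, at -2.93 and -2.92. No gap separated members from the genes next in rank.

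The leading higher members were close to silent in most of the 15 other libraries. LOC111921768 had 236, 185 and 212 CPM in the 3 libraries, against a lowest value of 0, a median of 0.35 and a highest value of 2.83 CPM in the 15 others. Its difference of 7.14 was the largest of all 14862 genes, and the 3 values lay close together while the varieties and light treatments differed. LOC111905399 had 53.1, 122 and 81.0 CPM, against 0.18, 0.77 and 1.6 CPM as lowest, median and highest value of the others. LOC111882484 had 41.9, 52.5 and 56.7 CPM, against 0, 0.19 and 2.61 CPM. In these genes the Falstaff library was as high as the Luna bionda libraries.

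In other leading members the 3 libraries were spread more widely. LOC111885880 had 293, 132 and 27.9 CPM, against a lowest of 0, a median of 0.91 and a highest value of 27.2 CPM. The Falstaff library was just above the highest of the 15 others, which was Luna bionda UVB 7.5 h replicate 3. LOC111884195 had 574, 207 and 103 CPM in the 3 libraries and 0.23, 5.52 and 16.4 CPM as lowest, median and highest value of the others. LOC111904046 had 490, 371 and 106.7 CPM, against 0.97, 8.23 and 29.0 CPM. LOC111921604 had 280, 182 and 104 CPM, against 0.49, 2.77 and 33.1 CPM. In all 4 genes Luna bionda replicate 2 was the highest of the 3 and the Falstaff library the lowest, with no overlap with the 15 others.

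The remaining 3 of the 10 leading higher members again had low medians in the 15 others. LOC111911143 had 152, 52.0 and 145 CPM in the 3 libraries, against a lowest of 0.09, a median of 1.29 and a highest value of 7.55 CPM. LOC111919686 had 68.8, 28.5 and 19.9 CPM, against a median of 0 and a highest value of 0.23 CPM. LOC111921670 had 48.2, 48.8 and 40.1 CPM, against 0, 0.43 and 1.48 CPM. The lowest of the 3 libraries stood above every other deep library in each of these 10 genes.

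**Figure D2:**
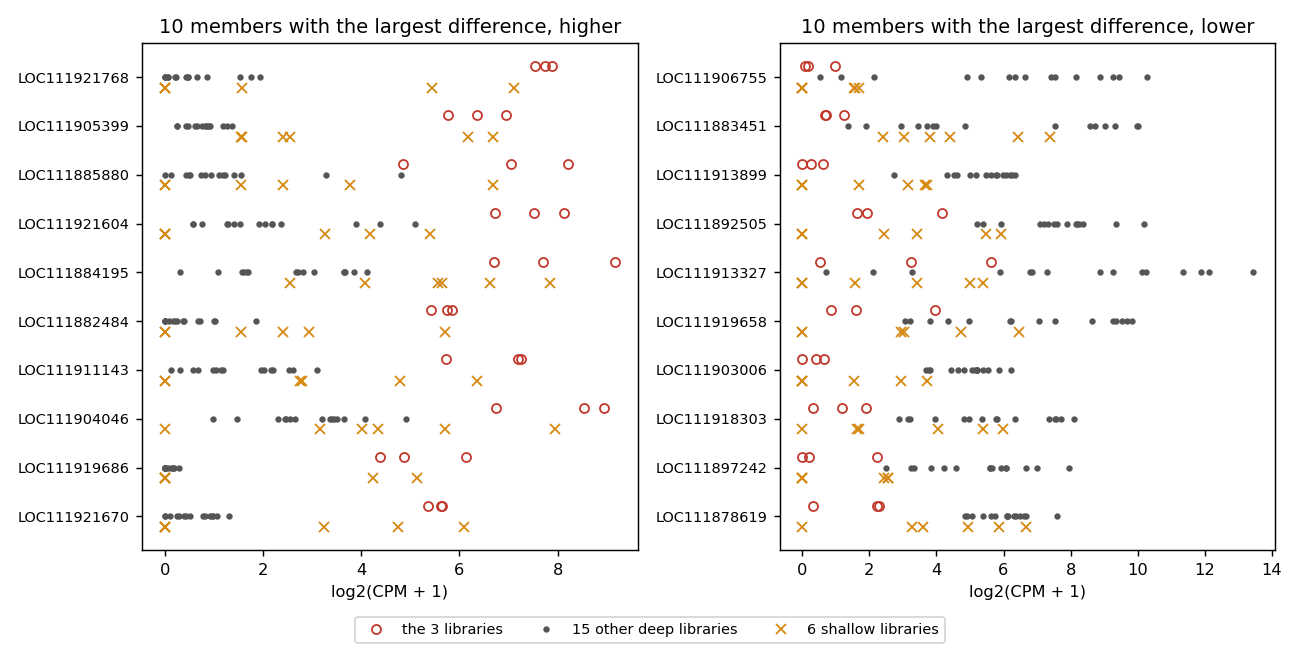
Level of the 10 members with the largest difference on each side, as log2(CPM + 1), with 1 point per library for the 3 libraries (open circles), the 15 other deep libraries (dots) and the 6 shallow libraries (crosses). In the left panel the open circles lie to the right of all dots in each gene, and some crosses lie among the circles.

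Such low levels elsewhere were frequent among the higher members, though not general. The median of the 15 others was under 1 CPM in 17 of the 100 members, and under 10 CPM in 65. In 3 members, LOC111919686, LOC111901694 and LOC111918902, each of the 15 others had less than 1 CPM. LOC111901694 had 57.1, 89.3 and 3.32 CPM in the 3 libraries, and LOC111918902 had 36.0, 53.0 and 9.06 CPM. Every higher member had at least 1 CPM in each of the 3 libraries, and 32 had at least 100 CPM in each. Fold changes of such low genes depend on the added pseudocount of 1, which understates them.

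At the other end, 5 higher members had a median of at least 100 CPM in the 15 others, and they carried much of the share of reads. LOC111883965 had 12539, 5390 and 10034 CPM in the 3 libraries, against a lowest of 335, a median of 1094 and a highest value of 2707 CPM in the others. It made up 25.9% of the CPM of the higher list summed over the 3 libraries, and 34.6% of that summed over the 15 others. LOC111893041 had 9666, 4212 and 1104 CPM, against 38.3, 382 and 1374 CPM, so that the Falstaff library overlapped with the others. LOC111920812 had 3225, 1946 and 2975 CPM, against 42.2, 233 and 676 CPM. LOC111878038 had 1863, 1834 and 752 CPM, against 77.2, 128 and 194 CPM. The same 3 genes, LOC111883965, LOC111893041 and LOC111920812, had the highest summed CPM of the list in both sets of libraries.

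The leading lower members were moderately or highly expressed in most of the 15 others and low in the 3 libraries, though 3 of the 10 had 14.6 to 48.7 CPM in Luna bionda UVB 2.5 h replicate 3. LOC111906755 had 0.97, 0.07 and 0.13 CPM in the 3 libraries, against a lowest of 0.43, a median of 99.2 and a highest value of 1248 CPM in the others. The highest value was that of Luna bionda UVB 2.5 h replicate 1, and Falstaff UVB 2.5 h replicate 2 at 0.43 CPM overlapped with the 3 libraries. LOC111913899 had 0, 0.54 and 0.19 CPM, against 5.67, 48.4 and 80.0 CPM, with no overlap. LOC111903006 had 0, 0.34 and 0.57 CPM, against 11.8, 34.3 and 73.4 CPM, again with no overlap and at like levels in both varieties, with medians of 32.1 CPM in the other Luna bionda and 39.7 CPM in the other Falstaff libraries.

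Several leading lower members also varied widely within the 15 others. LOC111883451 had 0.61, 1.35 and 0.63 CPM in the 3 libraries, against 1.56, 27.6 and 1040 CPM as lowest, median and highest value. LOC111892505 had 2.79, 17.0 and 2.09 CPM, against 35.9, 191 and 1172 CPM, with no overlap in either gene. LOC111913327 had 8.43, 48.7 and 0.44 CPM, against 0.64, 471 and 11031 CPM, and here the groups overlapped. Its highest value was in Luna bionda UVB 2.5 h replicate 1 and its lowest in Falstaff UVB 2.5 h replicate 2, and its range over the 15 others of 12.71 log2 units was the widest of the lower list.

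LOC111919658 had 2.06, 14.6 and 0.82 CPM in the 3 libraries, with medians of 619 CPM in the other Luna bionda and 16.1 CPM in the other Falstaff libraries. LOC111918303 ran the other way between the varieties, with 0.24, 1.29 and 2.72 CPM in the 3 libraries and medians of 27.1 CPM in the other Luna bionda and 187 CPM in the other Falstaff libraries. LOC111897242 had 0, 3.65 and 0.16 CPM, against medians of 66.5 and 11.1 CPM in those libraries. LOC111878619 had 0.24, 3.86 and 3.67 CPM, against 79.2 and 46.9 CPM. In LOC111919658 the 3 libraries overlapped with the others only through Luna bionda UVB 2.5 h replicate 3, and in the other 3 genes they did not overlap.

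Over the whole lower list, the median of the 15 others was at least 100 CPM in 30 members, between 10 and 100 CPM in 66 and under 10 CPM in 4. In 14 members all 3 libraries were under 1 CPM, and in 13 at least one of the 3 libraries had 0 reads. The lower list held genes of high level too. LOC111897400 had 58.4, 495 and 499 CPM in the 3 libraries, against a lowest of 1174, a median of 1942 and a highest value of 3410 CPM in the others, with no overlap. LOC111895422 had 7.89, 304 and 934 CPM, against 536, 1876 and 3686 CPM, so that the Falstaff library overlapped with the others. LOC111880263 spread most among the 3, with 30.3, 935 and 0.51 CPM, and overlapped with the others, which had 5.78, 966 and 2070 CPM.

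**Figure D3:**
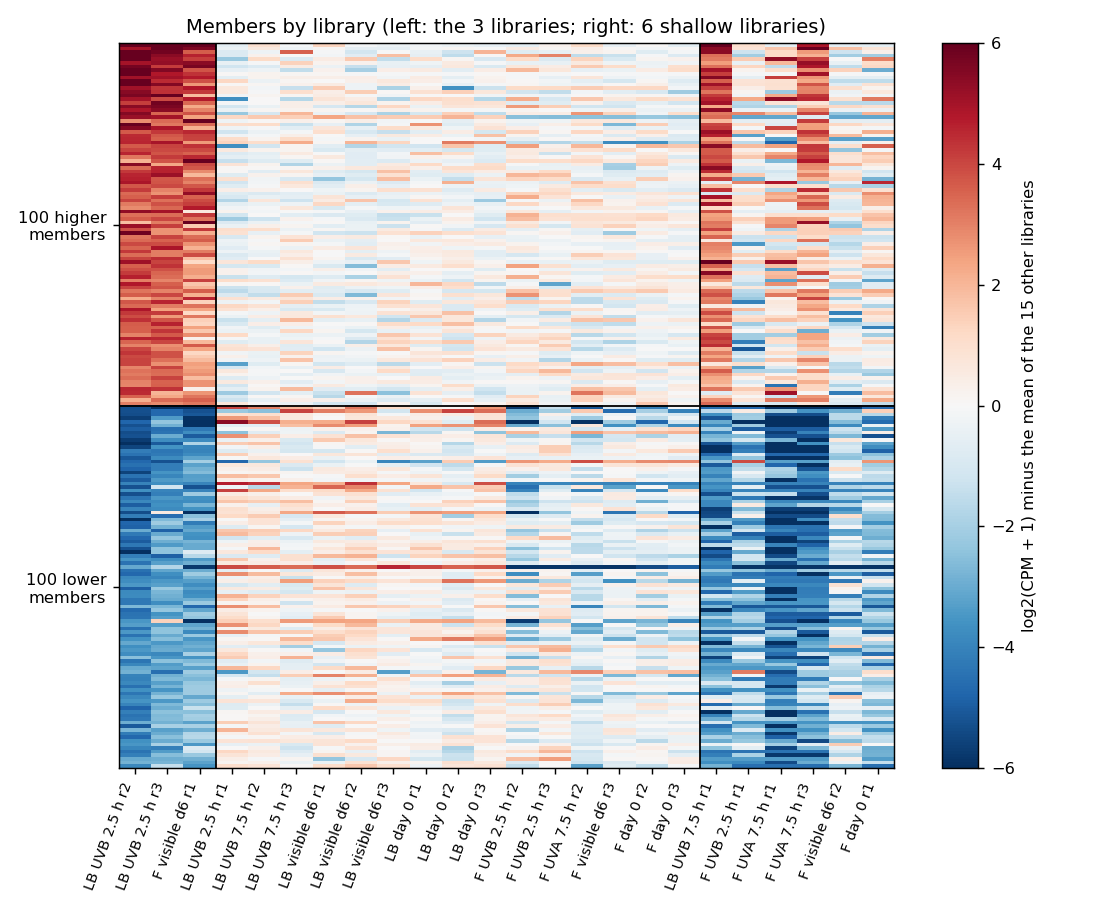
Level of each member in each library as log2(CPM + 1) minus the mean of the 15 other deep libraries, on a colour scale that ends at -6 and 6, with members in rows by rank and libraries in columns. The 3 libraries are at the left and the 6 shallow libraries at the right, and among the shallow ones the upper part of the picture is red over most of its height in Luna bionda UVB 7.5 h replicate 1.

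The 3 libraries did not take part to the same degree. Among the higher members Luna bionda UVB 2.5 h replicate 2 was the highest of the 3 in 50 of 100 and the Falstaff library the lowest in 61. Among the lower members Luna bionda UVB 2.5 h replicate 2 was the lowest in 73 and the Falstaff library the highest in 56. The range over the 3 libraries had a median of 1.74 log2 units in the higher and 1.88 in the lower members, against 1.05 over all 14862 genes. LOC111918093 was the most even higher member, with 86.8, 79.6 and 81.1 CPM. LOC111914487 was the most uneven one, with 58.2, 45.4 and 1.27 CPM.

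Members also varied more than most genes within the 15 other libraries. Their range there had a median of 2.65 log2 units in the higher and 3.12 in the lower members, against 1.66 over all genes. Luna bionda UVB 2.5 h replicate 1 was the lowest of the 15 in 24 higher members and the highest in 22 lower members. Falstaff UVB 2.5 h replicate 2 was the highest of the 15 in 18 higher members and the lowest in 28 lower members, and Falstaff UVA replicate 2 was so in 13 and 22. The range of a member over the 15 is not independent of the choice of members, which took the mean of these libraries.

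The difference was then taken within each variety, which leaves no shared library between both values. In Luna bionda, where UVB 2.5 h replicates 2 and 3 stand against 9 other deep libraries, the higher members had a median difference of 3.997 with a range of 2.31 to 7.12, and the lower members had a median of -3.96. In Falstaff, where 1 library stands against 6, the median was 2.94 for the higher members, with a range of -0.18 to 7.17, and -2.47 for the lower members. The medians over all 14862 genes were -0.44 in Luna bionda and 0.00 in Falstaff. Both Luna bionda libraries were above the 9 others in 99 of the higher members, against 7.72% of all genes, and below them in 96 of the lower members, against 22.5%. The Falstaff library was above the 6 others in 90 higher members, against 20.4% of all genes, and below them in 88 lower members, against 19.5%. The direction in Falstaff was the same in 98 of the 100 higher and in 99 of the 100 lower members. A Falstaff difference of at least 2 log2 units was found in 78 higher and 73 lower members, and the difference was larger in Luna bionda in 74 and 86. Both varieties entered the rule, so that these counts describe how the members are made up.

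In 3 members the direction in Falstaff was not the same. LOC111888024 had 106 and 98.0 CPM in the 2 Luna bionda libraries, against a highest value of 6.83 CPM in the 9 others of the variety, and 4.18 CPM in the Falstaff library, against a median of 4.76 CPM in the 6 others. LOC111912253 had 130 and 113 CPM, against a highest value of 19.9 CPM in Luna bionda. In the Falstaff library it had 5.92 CPM, above the median of 5.03 CPM in the 6 others. On the log2 scale, which sets the direction, it did not exceed the mean of those 6 libraries. Both genes thus belong to the set through Luna bionda alone. LOC111912471, a lower member, had 0 and 0.27 CPM, against a lowest value of 7.37 CPM in the other Luna bionda libraries, and did not exceed 0.07 CPM in any deep Falstaff library.

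**Figure D4:**
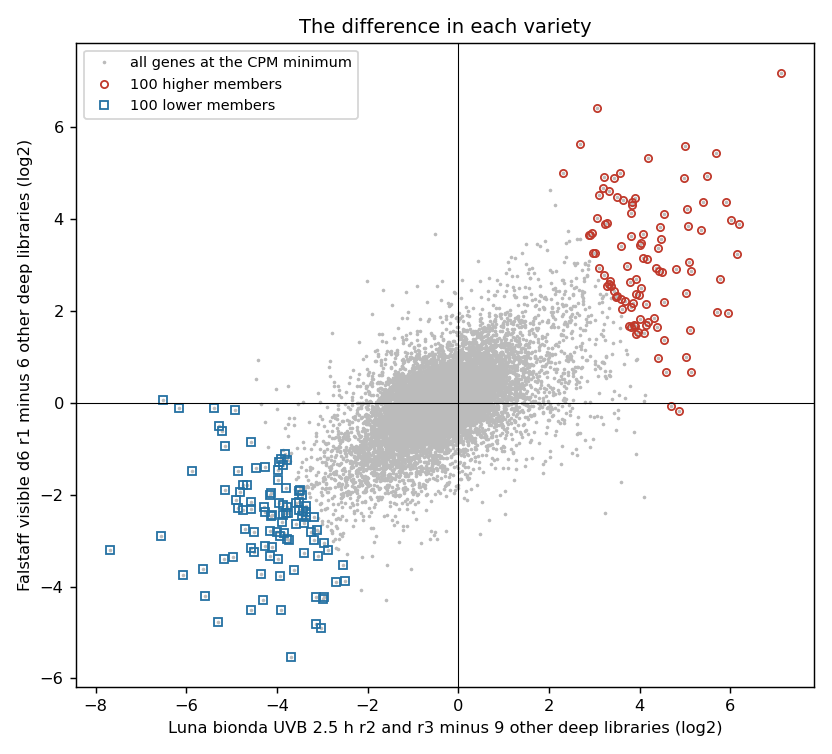
Difference in log2(CPM + 1) within Luna bionda (x axis, 2 libraries minus 9) and within Falstaff (y axis, 1 library minus 6) for the genes at the CPM minimum (dots), the higher members (circles) and the lower members (squares). The circles lie right of 2.31 on the x axis, and 98 of the 100 lie above 0 on the y axis.

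Lists ranked within a single variety were also set side by side. They rest on the same 18 libraries as the rule, and the 3 libraries were named for their shared levels, so that what the varieties share here is a description and no independent evidence. The 100 genes with the highest difference in Luna bionda alone had a median difference of 2.23 in Falstaff, with 90 of them on the same side. In 74 of them the Falstaff library was above the 6 other Falstaff libraries, against 20.4% of all 14862 genes. The 100 genes with the lowest difference in Luna bionda had a median of -1.99 in Falstaff, with 95 on the same side. In 72 the Falstaff library was below the other 6, against 19.5% of all genes. Of the 100 highest genes by each variety 39 were shared, and of the 100 lowest 31. At least 2 log2 units higher were 429 genes in Luna bionda and 249 in Falstaff, of which 159 were in both, 37.1% of the Luna bionda and 63.9% of the Falstaff genes. At least 2 log2 units lower were 687 and 218 genes, of which 145 were in both, 21.1% and 66.5%. In Falstaff a single library stands for the pattern, so that there is no spread for it within the variety. The Falstaff library is unexposed, whereas both Luna bionda libraries had received UVB.

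The shallow libraries were not used to choose the members, and they differed in the level of the higher list. The 15 libraries they are set against were used, and the rule favoured higher members that are low there. A level above these 15 is thus in part favoured for higher members over other genes, and a level below them for lower members. The shares and counts of the shallow libraries are therefore a description. The higher members took 1.7% of reads in Luna bionda UVB 7.5 h replicate 1 (95% Clopper-Pearson interval 1.68% to 1.73%). They took 1.55% in Falstaff UVA replicate 3 (interval 1.51% to 1.58%) and 0.994% in Falstaff UVA replicate 1 (interval 0.965% to 1.02%). All 3 shares were above those of the 15 other deep libraries. In Falstaff UVB 2.5 h replicate 1, Falstaff visible light day 6 replicate 2 and Falstaff day 0 replicate 1 the shares were 0.325%, 0.241% and 0.51%, which lay within the range of the 15. These intervals cover counting error only, and reads amplified by PCR are not independent molecules.

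Gene by gene, Luna bionda UVB 7.5 h replicate 1 was above all 15 other deep libraries in 90 of the 100 higher members, against 20.3% of all 14862 genes. Falstaff UVA replicate 3 was above all 15 in 70, against 7.17%. Falstaff UVA replicate 1 was above all 15 in 28, against 3.5%. Both of Luna bionda UVB 7.5 h replicate 1 and Falstaff UVA replicate 3 were above all 15 in the same 66 members, against 5.11% of all genes, and all 3 of these shallow libraries were so in 21, against 1.51%. The other shallow libraries were nearer to the background. Falstaff UVB 2.5 h replicate 1 was above all 15 in 13 members, against 7.94% of all genes, and Falstaff day 0 replicate 1 was so in 19, against 8.22%. Falstaff visible light day 6 replicate 2 was so in 5, against 4.42%.

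Some of the leading members show the same division. LOC111921768 had 137 CPM in Luna bionda UVB 7.5 h replicate 1 and 42.5 CPM in Falstaff UVA replicate 3, and 0 to 1.97 CPM in the other 4 shallow libraries. LOC111905399 had 71.3 and 102 CPM in these libraries, and 1.93 to 4.82 CPM in the other 4. LOC111919686 had 17.8 and 34.0 CPM and no read in the other 4. In each of these genes both values were above those of all 15 other deep libraries. A single read is worth 0.965 to 2.15 CPM in the shallow libraries, so that values of a few CPM rest on single reads. Falstaff UVA replicate 1 was high in LOC111884195, with 228 CPM, and in LOC111912378, with 1286 CPM, where the 3 libraries had 1025, 501 and 876 CPM, against a highest value of 144 CPM in the 15 others. It had no read of LOC111921768. Other members ran against this division. LOC111919124 had 35.5 CPM in Falstaff UVB 2.5 h replicate 1 and more than that in Falstaff day 0 replicate 1, above the highest of the 15 others at 19.9 CPM. It had 2.23 CPM in Luna bionda UVB 7.5 h replicate 1 and no read in Falstaff UVA replicate 3, but 136 CPM in Falstaff UVA replicate 1.

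The median higher member had 69.0 CPM in Luna bionda UVB 7.5 h replicate 1, and 5.24 and 5.51 CPM in replicates 2 and 3 of that group. It had 38.2 CPM in Falstaff UVA replicate 3, against 7.3 CPM in the deep replicate 2 of that group. Falstaff UVA replicate 1, at 8.62 CPM, was close to replicate 2 and to the highest of the 15 others, 8.51 CPM. The plastid share was 6.53% in Luna bionda UVB 7.5 h replicate 1, 11.6% in Falstaff UVA replicate 3 and 4.47% in Falstaff UVA replicate 1. In the other 3 shallow libraries it was 7.08% to 10.4%. The part of depth and plastid reads in these levels was not tested.

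The lower members cannot be read in the same way at this depth. Their share was 0.127% in Luna bionda UVB 7.5 h replicate 1, 0.117% in Falstaff UVA replicate 3 and 0.0457% in Falstaff UVA replicate 1. It was 0.355% to 0.722% in the other 3 shallow libraries, so that all 6 shallow libraries were below the 15 others. Luna bionda UVB 7.5 h replicate 1 was below all 15 in 74 of the 100 lower members, but 36% of all genes were too. In Falstaff UVA replicate 3 the numbers were 83 members and 51.9% of all genes, and in Falstaff UVA replicate 1 they were 91 members and 73.1%. In the other 3 shallow libraries they were 62 members and 41.3% in Falstaff day 0 replicate 1, 52 members and 44.7% in Falstaff UVB 2.5 h replicate 1, and 34 members and 47.6% in Falstaff visible light day 6 replicate 2. Of all 14862 genes, 34.5% had no read in Falstaff UVA replicate 1, 15.8% had none in Falstaff UVA replicate 3, and between 4.96% and 7.02% had none in the other shallow libraries.

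Over all 24 libraries, the share of reads on the higher members was above 0.62%, the highest of the 15 others, in 6 libraries. Of these, Falstaff UVA replicate 1 stood above through few genes. LOC111893041, LOC122194386, LOC111920812 and LOC111912378 had 2384, 2046, 1331 and 1286 CPM there, whereas 22 of the 100 higher members had no read and 29 were nearer to the mean of the 3 libraries than to that of the 15. The 6 libraries were spread over Luna bionda UVB 2.5 h (replicates 2 and 3), Luna bionda UVB 7.5 h (replicate 1), Falstaff visible light day 6 (replicate 1) and Falstaff UVA (replicates 1 and 3). In each of these 4 groups at least one library was among the other 18. By label, none of the 6 was a day 0 library. None was, by label, among the 3 libraries of Falstaff UVB 2.5 h or of Luna bionda visible light day 6. The table names disagree here. Luna bionda UVB 7.5 h replicate 1 and Falstaff visible light day 6 replicate 1 lie in sets that the table names call day 0. No group by label had all of its libraries above that value. The batch tags of 5 of the 6 are of the lower number series, as are those of 5 of the other 18.

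The comparisons by label asked whether members differ between varieties, times or light treatments in groups that hold none of the 3 libraries. The deep libraries of these groups entered the rule within the mean of the 15, so that the comparisons are not independent of the choice of members. For the varieties, 9 of the 15 and both UVB libraries of the 3 are Luna bionda, so that a gene high in Luna bionda and absent in Falstaff could enter the lower list through Luna bionda alone. The number and direction of members called between the varieties are therefore in part fixed by the rule, and are given as a description. At day 0, as labelled, the varieties differed in 9 members. The table names call these sets of libraries visible light in Luna bionda and UVB in Falstaff. Of the lower members, 8 of 100 tested were called, all higher in Luna bionda, against 1.33% of the 21635 genes tested (limma, Benjamini-Hochberg adjusted p of 0.05 over all genes tested). Of the higher members, 1 of 92 tested was called. At an unadjusted limma p under 0.05 were 40 lower and 14 higher members, against 9.11% of all genes tested. The edgeR quasi-likelihood test called 6 lower members and 1 higher member, among 395 of all 21635 genes tested. The median log2 fold change of Luna bionda over Falstaff was 1.26 in the lower members, 0.07 in the higher members and 0.09 over all genes tested. Without the shallow Falstaff day 0 replicate 1 the median of the lower members was 0.54, and 16 of 100 lower and 2 of 93 higher members were called, where 667 of all 22390 genes tested were. Without any one of the 3 Luna bionda libraries, 0 or 1 lower members and 0 higher members were called, and without Falstaff replicates 2 and 3 the lower members called were 1 and 3. Calls over all genes fell as well, from 287 to 4, 7 and 0 without Luna bionda replicates 1, 2 and 3. They fell to 47 and 58 without Falstaff replicates 2 and 3.

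The called lower members ranged from genes near absent in Falstaff to genes well expressed in both varieties. LOC111895045 had 14828, 10450 and 10968 normalized reads in Luna bionda day 0, against 0, 4.94 and 13.9 in Falstaff day 0 (log2 fold change 11.39, SE 0.89, limma adjusted p = 0.00516). It was at 6.19, 17.0 and 0.09 CPM in the 3 libraries, and at 608 to 1417 CPM in the other Luna bionda libraries. LOC111880263 had 26538, 28264 and 18319 normalized reads in Luna bionda, against 1331, 604 and 362 in Falstaff (log2 fold change 5.17, SE 0.51, limma adjusted p = 0.00711). LOC111912471 had 374, 112 and 3323 normalized reads, against 0, 0.71 and 0 (log2 fold change 8.76, SE 1.24, limma adjusted p = 0.0198). These normalized reads are divided by a size factor that includes the shallow library, and are compared only within this comparison. The groups did not overlap in any of the 3 genes.

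For LOC111897350 the Luna bionda mean was 11891 ± 2150 normalized reads, against a Falstaff mean of 399 ± 289 (SD, n = 3 each, limma adjusted p = 0.023). For LOC111919658 the Luna bionda mean was 11127 ± 1465 and the Falstaff mean 687 ± 780, with an adjusted p of 0.0433 in the same limma fit. The other 3 genes called had smaller changes, with log2 fold changes of 1.78 in LOC111913899, 2.13 in LOC111900153 and 2.49 in LOC111879403. The higher member LOC111901947 had 368, 527 and 297 normalized reads in Luna bionda, against 0, 9.52 and 9.27 in Falstaff (log2 fold change 6.34, SE 0.99, limma adjusted p = 0.0292). In the 3 libraries it stood at 314, 273 and 45.4 CPM, against 19.6 to 43.6 CPM in the other Luna bionda and 0.44 to 0.79 CPM in the other Falstaff libraries. The Falstaff library of the 3 thus had this gene above the 15 others of both varieties and below both Luna bionda libraries of the 3.

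The other 4 comparisons gave 0 calls with limma and with edgeR, among members and among all genes tested. The shares of all genes at an unadjusted limma p under 0.05 were low, at 0.329% to 2.76%. For this reason 0 calls do not show that the members are unchanged. For visible light at day 6 against day 0 in Luna bionda, 7 of 97 higher and 7 of 100 lower members tested had an unadjusted limma p under 0.05, against 2.76% of all genes, and DESeq2 called 1 lower member among 3 genes in all. The median log2 fold changes were -0.36 in higher and 0.12 in lower members. In Falstaff under UVB 2.5 h against day 0, 1 of 84 higher and 0 of 98 lower members had an unadjusted limma p under 0.05, against 0.329% of all genes, with medians of -0.12 and -0.03. In that comparison DESeq2 called 0 genes. Replicate 1 is shallow in both of its groups. Without these shallow libraries 16 of 92 higher and 8 of 98 lower members had an unadjusted limma p under 0.05. So did 1438 of all 22299 genes tested, and 0 genes were called. The medians were then 0.08 in higher and -0.08 in lower members. The medians of both lists thus lay between -0.36 and 0.12 in these comparisons.

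Luna bionda UVB 7.5 h against visible light at day 6 had a median log2 fold change of 1.56 in the higher members tested, positive in 97 of 99, and of -1.39 in the lower members, negative in 99 of 100. The median over all genes was -0.09. No member was called with limma, where 11 higher and 2 lower members had an unadjusted p under 0.05, against 0.759% of all genes, or with edgeR, and DESeq2 called 4 higher members among 34 genes in all. These medians rested on the shallow replicate 1. Without it they were 0.42, positive in 73 of 97, and 0.07, positive in 53 of 100. LOC111912253 had the smallest unadjusted p of the members, 0.00457, with 458 ± 379 normalized reads under UVB and 37.2 ± 6.85 under visible light (SD, n = 3 each, limma adjusted p = 0.989).

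Falstaff UVA against day 0 had medians of 1.62 in the higher members tested, positive in 86 of 92, and of -2.96 in the lower members, negative in 93 of 95. The median over all genes was -0.49. No member was called with limma, where 9 higher and 12 lower members had an unadjusted p under 0.05, against 1.26% of all genes, or with edgeR, and DESeq2 called 3 higher members among 9 genes in all. The UVA group holds 2 shallow libraries. With the single deep UVA library against both deep day 0 libraries the medians were 0.41 and -0.72, and 0.03 over all genes. Higher members were then positive in 61 of 95 and lower members negative in 70 of 99, while 11757 of all 22681 genes were positive. In this comparison and in that of Luna bionda UVB 7.5 h the medians of the members were this large only with the shallow libraries included. The part of depth in them was not tested.

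**Figure D5:**
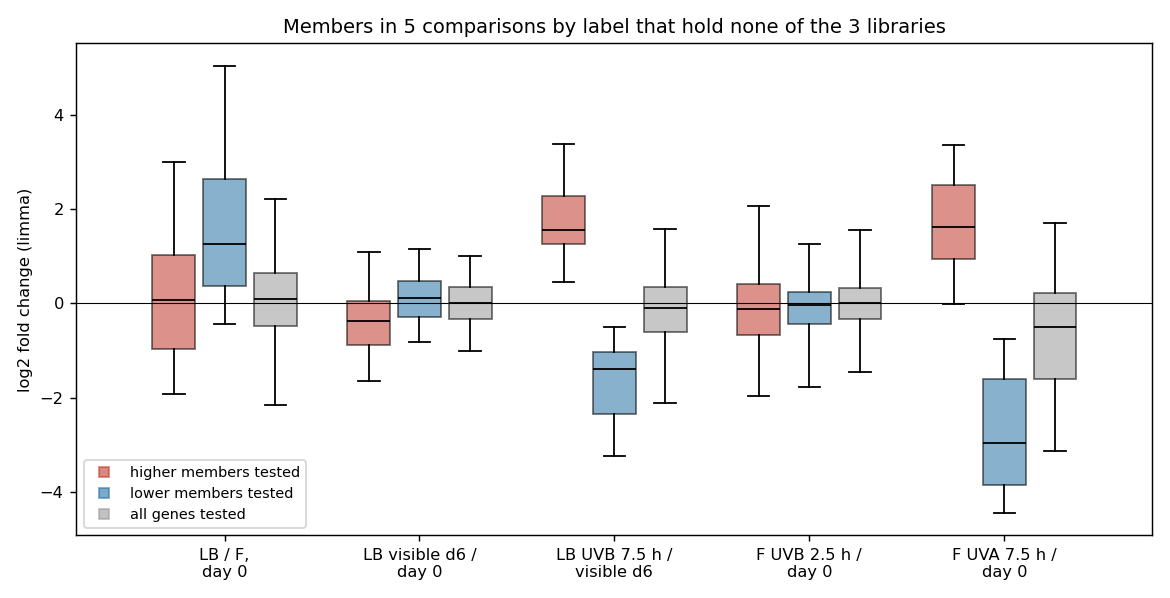
Log2 fold changes (limma) of the higher members, the lower members and all genes tested in 5 comparisons by label without the 3 libraries; boxes span the quartiles with the median as a line, and whiskers the 5th to 95th percentile. The boxes of higher and lower members lie apart in Luna bionda UVB 7.5 h and Falstaff UVA, with medians of 1.56 and -1.39 and of 1.62 and -2.96, and both of these comparisons include shallow libraries.

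Beyond the comparison of day 0, the varieties differed in the lower members over the 15 libraries as a whole. The mean of the other Luna bionda libraries was at least 1 log2 unit above that of the other Falstaff libraries in 39 of the 100 lower members, against 2.83% of all 14862 genes, and at least 1 log2 unit below in 5. In the higher members the numbers were 7 above and 16 below, and 4.79% of all genes were below. These 15 libraries entered the rule, and conditions differ between the varieties, so that this is a description.

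By biotype in RefSeq, 192 of the 200 members are protein-coding and 7 are long noncoding RNAs, against 94.4% and 5.38% of all 14862 genes. The higher noncoding members were LOC122195706, LOC111892747 and LOC111907363. LOC122195706 was even over the 3 libraries, with 22.6, 25.2 and 26.5 CPM, against a lowest of 0.47, a median of 1.14 and a highest value of 5.48 CPM in the others. LOC111892747 had 141, 115 and 211 CPM, against 5.89, 12.7 and 37.4 CPM. The lower noncoding members were LOC111898757, LOC111896177, LOC111908254 and LOC111877679. LOC111898757 had 2.18, 2.64 and 3.17 CPM in the 3 libraries, against 24.2, 46.1 and 94.2 CPM. In all 7 noncoding members the 3 libraries and the 15 others did not overlap. The same held for 84 of the 100 higher and 71 of the 100 lower members. Of all genes, 3.4% were above and 5.92% below without overlap. The rule favoured such members, so that this is no trait of the noncoding ones.

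The members lie on all 9 lettuce chromosomes, with 17 higher members each on chromosomes 8 and 9 and 16 lower members on chromosome 9, and none is a plastid or mitochondrial gene. Neither these counts nor the pairs below were set against all 14862 genes, so that no clustering is read from them. Among the 14862 genes in order along the chromosomes, 7 pairs of higher members and 2 pairs of lower members are next to each other, and 1 pair holds a higher and a lower member. In some of these pairs 1 to 8 annotated genes that were not ranked lie between the members. In both pairs given as examples here no annotated gene lies between. Neighbours that are not members had a median difference of -0.27 next to higher and -0.44 next to lower members, close to the -0.31 of all genes. In the pair LOC111909314 and LOC111909313 the 3 libraries had 141, 93.0 and 13.0 CPM of one gene and 111, 74.0 and 8.87 CPM of the other, in the same order. In the pair LOC111898569 and LOC111898568 the order was the reverse, with 30.4, 63.9 and 81.2 CPM and with 20.9, 51.5 and 60.3 CPM. Where neighbours are near-identical copies, the counting could divide reads between them, so that the values of these pairs are uncertain as single genes.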

How the data were processed

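Polyadenylated RNA of leaves was amplified, made into Nextera XT libraries and sequenced as paired ends on a NovaSeq, per the labels' protocols. Reads were aligned with STAR and counted with featureCounts 1.6.3, per the submitters' processing notes. For the genome build, annotation and strand setting the sources used here give nothing. As deposited by the authors, 7 tables hold normalized signal by gene for 6 libraries each. All values were whole multiples of a single step per library (100.0% at a relative tolerance of 0.001), so that whole reads were recovered and joined into 24 libraries. The authors' tables of fold changes were not used.

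The batch tag of each label gave the sample of each column. CPM is reads divided by the library total. The members, lists and tests were chosen with earlier results of these data known. Named genes are the 10 with the largest difference on each side, those next to the edges, and members called in a test. Genes named as examples of level, evenness, direction, biotype or neighbourhood were chosen after their values were seen. Planned lists of protein families, leaf markers and promoter motifs need product names or sequences that were not used here, so that none was filled. RefSeq (Lsat_Salinas_v11), to which 31073 of 31499 identifiers matched, gave biotype and gene order only.

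Comparisons by label were run in limma 3.58.1 (R 4.3.3) with a trend on level. Reads were divided by median-of-ratios size factors and taken as log2 after adding 1. Tested were genes that averaged 10 or more in the 6 libraries compared, at a Benjamini-Hochberg adjusted p of 0.05 over all of them. The fit was tested on simulated data. A single read is worth 0.0231 to 0.0828 CPM in the deep libraries. Alternatives were TMM scaling, other pseudocounts and filters, edgeR 4.0.16, DESeq2 1.42.0, a batch tag term, a replicate block, and the omission of each library and of the shallow libraries. Deviations of same-numbered libraries had correlations across genes of 0.584, 0.507 and 0.507 in Falstaff UVB against day 0, where every pair was over 0.1. In the other 4 comparisons at least one pair was under it, as in Falstaff UVA with 0.288, 0.404 and -0.083. In Falstaff UVB the pairing comes from these values alone, replicate 1 is shallow in both groups, and the replicate block changed no call.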

Additional observations from a re-analysis of the deposited data

How the results depend on the processing

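Of the 100 higher and 100 lower members, 99 and 95 were kept with median-of-ratios scaling, 97 and 86 with a pseudocount of 0.5, 78 and 72 with a pseudocount of 5, and 88 and 69 with the shallow libraries among the others. Without each of the 3 libraries in turn, 77 to 82 higher and 78 to 84 lower members were kept. With a minimum mean of 20 CPM 58 higher members were kept, since genes of lower level are then not ranked. With Falstaff libraries only, an alternative chosen after seeing the data, 57 and 47 were kept, with a single library of the pattern. For the varieties at day 0, where limma called 1 higher and 8 lower members, the numbers were 7 and 21 with DESeq2, 2 and 17 with a batch tag term, and 2 and 16 without the shallow library. Calls over all genes were then 970, 501 and 667, against 287, and with a pseudocount of 0.5 no higher member was called (0). Leaving out each library gave 0 to 2 higher and 0 to 16 lower members, with 0 to 667 calls over all genes. Without any single Luna bionda library 0 higher and at most 1 lower member were called, and without Falstaff replicates 2 and 3 the lower members numbered 1 and 3. Calls over all genes were then 4, 7 and 0 for Luna bionda and 47 and 58 for Falstaff, in replicate order. DESeq2 called 1 lower member in Luna bionda visible light, 4 higher members under UVB 7.5 h and 3 higher members under UVA (3, 34 and 9 genes in all), where limma called 0. The cause of these changes was not tested. The replicate block gave 0 higher and 2 lower calls at day 0, among 7 over all genes, where the numbers do not pair the libraries. The block gave 0 calls in the other 4 comparisons, as without it. Shallow depth limits what the lower members show, and the single Falstaff library leaves no spread within its variety.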
